A study of Sus scrofa with 2 samples.

Results

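The antiviral effectors are proteins that interferon-treated cells make to block viruses directly, and the genes described here are MX1, MX2, IFIT1, IFIT2, IFIT3, IFIT5, RSAD2, BST2, IFI6 and ISG20. They were chosen by name for that function, with earlier results of these data known. Of the 10, 9 had an entry among the 34570 genes of the deposited tables. RSAD2 was found under its older name IRG6, which the RefSeq gene table of assembly Sscrofa11.1 gives as a synonym, and the other 8 under their own symbols. IFI6 was not analysed here, because no entry could be matched to it.

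RNA came from follicular granulosa cells, the somatic cells around the oocyte, of female Chinese Erhualian pigs. One group received a control siRNA (NC-siRNA) and the other SMAD4-siRNA, which targets the SMAD shared by TGF-beta and BMP signalling, so both groups were exposed to an siRNA. RNA of 3 individuals per group was pooled into 1 library, 2 libraries in all. The sources used here give neither the time after transfection nor whether both pools came from the same animals, so a difference between animals and a difference between treatments cannot be told apart.

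Cells sense foreign RNA or DNA with receptors such as RIG-I and cGAS and then secrete interferons. Interferon binds its receptor, the kinases JAK1 and TYK2 relay the signal, and a complex that holds STAT2 and IRF9 switches on interferon-stimulated genes. The effectors at the end of this chain act at different steps of infection: MX proteins on viral nucleocapsids, IFIT proteins on viral RNA, viperin on nucleotides, tetherin on budding particles and ISG20 on RNA itself.

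The deposited unit is upper-quartile-scaled RPKM, a level per base of transcript, so levels of different genes can be compared. Reads were recovered from the values as the smallest whole numbers that fit, at least 17680952 with control siRNA and 17394711 with SMAD4 siRNA. Each range after a level or ratio is an exact 95% interval for counting error only, which covers neither animals nor transfections. A single library per group allows neither a test of the treatment nor a check by replicates. SMAD4 went from 85.0 to 47.9, a ratio of 0.563 (0.497 to 0.639), lower in the library labelled SMAD4 siRNA. Of 10 measured granulosa markers, 2 had an interval above 1, beside 12.7% of all measured genes, and 2 had one below, beside 21.5%. HSD3B1, of progesterone synthesis, was at 12334 and 23378 (ratio 1.90, 1.85 to 1.94) and INHBA at a ratio of 1.31 (1.22 to 1.41), while AMHR2 was at 0.493 (0.266 to 0.886) and NR5A1 at 0.849 (0.741 to 0.973). GATA4 (748 and 774), WT1 (521 and 509) and FOXL2 (132 and 146) had intervals that held 1, FSHR had 9 and 7 reads, and CYP19A1, CYP11A1 and AMH were listed at 0 in both.

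All 9 effectors with an entry had a higher value in the SMAD4 siRNA library, and each had a counting interval wholly above 1. Such an interval was found for 12.7% of the 16609 genes whose mean value reached 1. That share, and the 21.5% with an interval below 1, include genes with few reads, whose intervals are wide. Neither share was computed for genes with at least 100 reads alone. Giving both libraries the same sum of values multiplies every ratio by 1.09, which can only move these 9 intervals further above 1. By the rule of size, a log2 ratio of at least 1 on the scale of value + 1, 7 of the 9 were higher by at least 2-fold, against 7.17% of those genes. At 1.5-fold it was 9 of 9, against 13.5%, and at 4-fold it was 4 of 9, against 2.28%. Among genes with at least 100 reads over both libraries it was 6 of 8 effectors, against 1.32% of 9664 genes. The median log2 ratio of the 9 was 1.75 on that scale, and that of all measured genes was -0.05. In bulk RNA, more cells expressing a gene and more RNA per cell cannot be told apart.

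**Figure D1:**
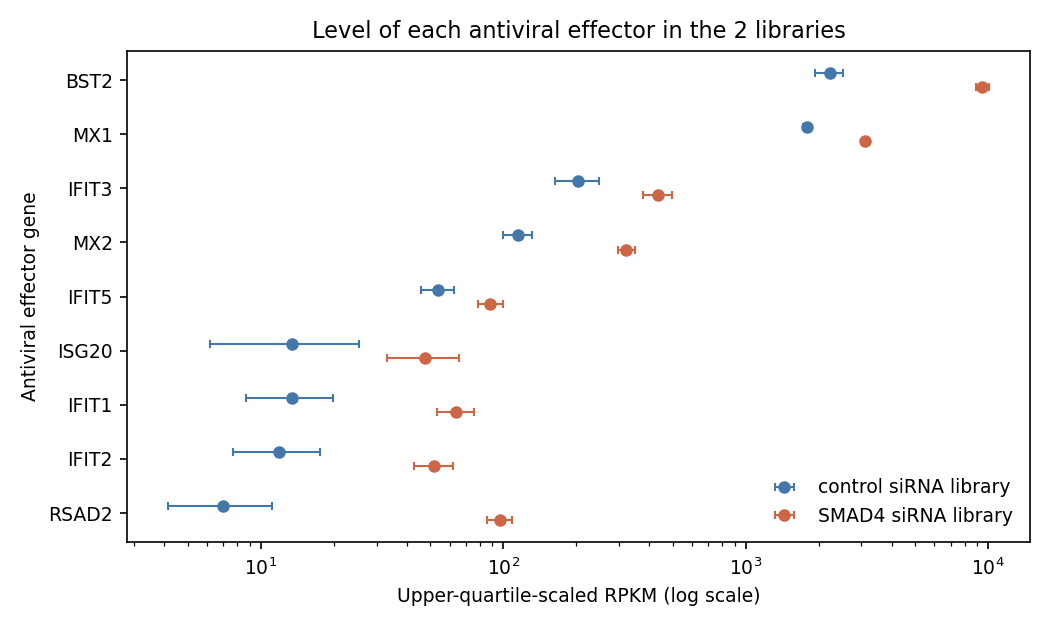
Level of the 9 effectors in upper-quartile-scaled RPKM (log axis) in the control siRNA library (blue) and the SMAD4 siRNA library (orange), with bars for the exact 95% counting interval of each level. Every orange point lies to the right of its blue point and no pair of bars overlaps, with the widest shift for RSAD2 (7.01 to 96.6).

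The MX genes encode dynamin-like GTPases that assemble around viral nucleocapsids. MX1, which restricts influenza and many other RNA viruses, was at 1785 (1731 to 1840) with control siRNA and at 3100 (3032 to 3169) with SMAD4 siRNA. Its ratio was 1.74 (1.67 to 1.80), resting on 4124 and 7887 reads, the most recovered reads of any effector. MX1 thus had the narrowest interval of the 9, and it lay wholly under 2-fold.

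MX2, whose human counterpart acts on lentiviruses and herpesviruses, was at 115 (99.4 to 131) and 322 (298 to 348). Its ratio was 2.81 (2.40 to 3.31) on 207 and 641 reads. The ratio of MX2 was 1.62 times that of MX1 (1.38 to 1.91), a comparison of genes within each library that no rescaling of a library can move. The level of MX1 still exceeded that of MX2 in both libraries. The paralogs are alike in sequence, and the sources used here do not say how the authors assigned reads between them.

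The IFIT genes encode tetratricopeptide-repeat proteins that bind viral RNA. IFIT1, which recognises RNA lacking the methylation of host caps, was at 13.4 (8.67 to 19.8) and 63.7 (53.3 to 75.6). Its ratio was 4.76 (3.09 to 7.62) on 25 and 131 reads. IFIT2, which forms complexes with IFIT1 and IFIT3, was at 11.9 (7.70 to 17.6) and 51.9 (43.0 to 62.0). Its ratio was 4.36 (2.82 to 7.003) on 25 and 120 reads. These paralogs had nearly the same level as each other in each library, and the ratio of IFIT1 over that of IFIT2 was 1.09 (0.567 to 2.10).

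IFIT3, which stabilises IFIT1 in their complex, had the highest level of the family, at 203 (164 to 249) and 433 (377 to 495). Its ratio was 2.13 (1.66 to 2.75) on at least 92 and 216 reads. Its smallest fitting length was 509 bases, so the true reads can be a multiple of these numbers and its intervals can be narrower. IFIT5, an RNA-binding member that acts without the others, was at 53.9 (45.9 to 62.9) and 88.5 (78.6 to 99.3). Its ratio was 1.64 (1.35 to 2.003) on 161 and 291 reads, the smallest of the 9.

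The family thus split into a low-level pair with ratios above 4 and a pair with higher control levels and smaller ratios. The ratio of IFIT1 was 2.23 times that of IFIT3 (1.34 to 3.81) and 2.90 times that of IFIT5 (1.79 to 4.84). For IFIT2 the same comparisons gave 2.04 (1.22 to 3.50) and 2.66 (1.63 to 4.44). IFIT3 over IFIT5 was 1.30 (0.942 to 1.80), an interval that holds 1 at the smallest fitting reads. With more reads for IFIT3 it would be narrower, so whether these 2 ratios differ is not settled.

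**Figure D2:**
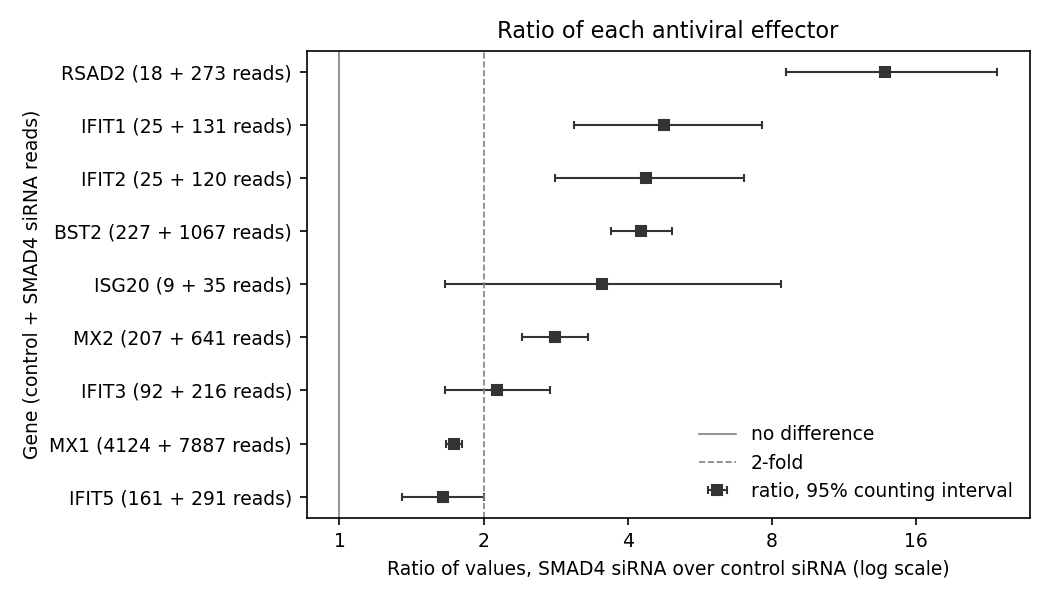
Ratio of the value in the SMAD4 siRNA library over that in the control library (log axis) for the 9 effectors, with exact 95% counting intervals and the recovered reads of both libraries beside each name. All 9 intervals lie to the right of 1, RSAD2 stands highest at 13.8 and IFIT5 lowest at 1.64, and the interval of ISG20 is wide because it rests on 9 and 35 reads.

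RSAD2 encodes viperin, a radical SAM enzyme that turns CTP into a chain terminator of viral RNA polymerases. Its control value of 7.01 (4.15 to 11.1) came from 18 reads and its SMAD4 siRNA value of 96.6 (85.4 to 109) from 273. The ratio of 13.8 (8.55 to 23.6) was the highest of the effectors, at rank 2 among the 9664 genes with at least 100 reads. Against each of the other 8 effectors the ratio of RSAD2 was higher with a counting interval above 1, from 2.89 times that of IFIT1 (1.46 to 5.83) to 8.39 times that of IFIT5 (4.96 to 14.9). Viperin had the lowest level of the 9 in the control library and the fifth highest in the other.

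BST2 encodes tetherin, a membrane protein that ties budding enveloped virions to the cell surface. Its value was 2218 (1939 to 2526) with control siRNA and 9468 (8908 to 10053) with SMAD4 siRNA. The ratio was 4.27 (3.70 to 4.95), resting on at least 227 and 1067 reads. Its smallest fitting length was 115 bases, so the true reads can be a multiple of these numbers and the interval can be narrower. BST2 was the most highly expressed effector in both libraries, at the 95.2nd percentile of genes above 0 with control siRNA and the 98.9th with SMAD4 siRNA.

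The ratio of BST2 was 2.46 times that of MX1 (2.12 to 2.86), the effector nearest to it in level. Against IFIT1, IFIT2 and ISG20 the intervals held 1. Summed over the 9 effectors, the value went from 4420 to 13671, a ratio of 3.09. BST2 made up 78.4% of that difference, and without it the summed ratio was 1.91, so the size of the sum rests on BST2.

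ISG20 encodes an exonuclease that degrades single-stranded RNA. It was at 13.4 (6.14 to 25.5) and 47.4 (33.0 to 66.0). The ratio was 3.53 (1.66 to 8.35), with 9 and 35 reads. This was the member with the fewest reads, and its ratio could be told apart by counting from that of RSAD2 alone among the other 8.

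**Figure D3:**
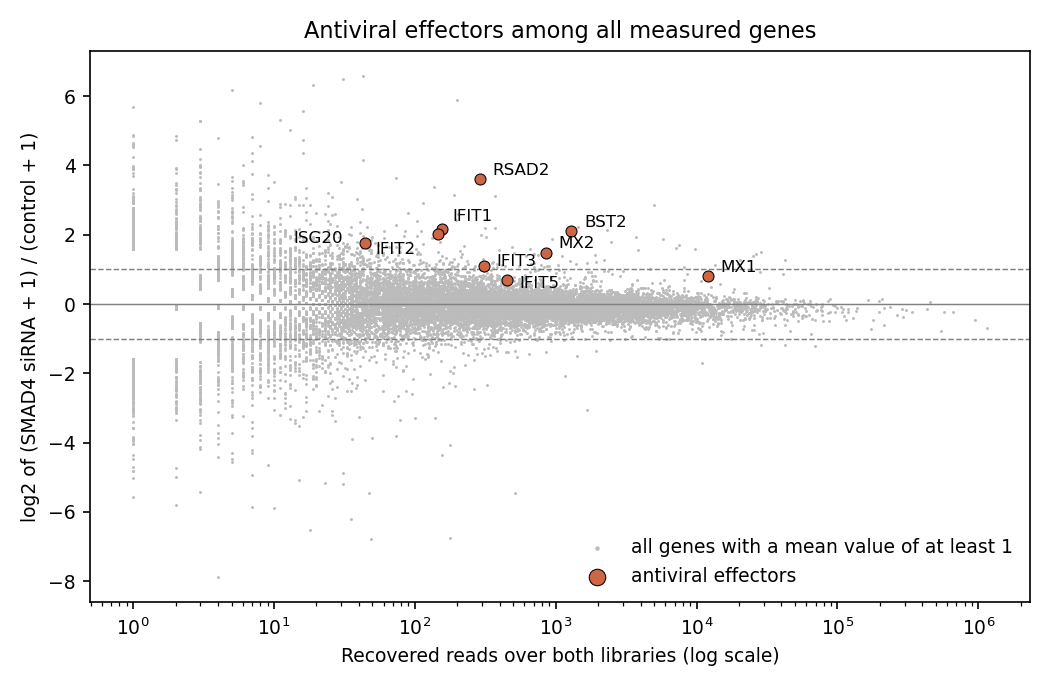
log2 ratio of values, each + 1, of SMAD4 siRNA over control siRNA, against recovered reads over both libraries (log axis) for the 16609 genes whose mean value reached 1 (grey) and the 9 effectors (orange, named), with dashed lines at 2-fold. Grey points spread widely at few reads and narrowly at many, and the effectors lie in the upper part of the cloud for their number of reads.

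The order of levels in the control library was BST2, MX1, IFIT3, MX2, IFIT5, ISG20, IFIT1, IFIT2 and RSAD2. The neighbours from ISG20 down to RSAD2 had overlapping intervals, and all neighbours above them did not. In the SMAD4 siRNA library the first 4 kept this order, followed by RSAD2, IFIT5, IFIT1, IFIT2 and ISG20. There RSAD2 and IFIT5 overlapped, as did IFIT1 with IFIT2 and IFIT2 with ISG20. RSAD2 moved from the 24.4th to the 60.1st percentile of genes above 0, and MX1, already high, from the 94.0th to the 96.8th.

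By rank of log2 ratio among the 9664 genes with at least 100 reads, RSAD2 was followed by IFIT1 at 14, BST2 at 18 and IFIT2 at 19. MX2 was at 44, IFIT3 at 104, MX1 at 216 and IFIT5 at 297. ISG20 had too few reads to be ranked there. Of the 36 pairs of effectors, 21 had ratios that differed beyond counting error, so the 9 did not share a single ratio. These intervals were not adjusted for the number of pairs. They rest on the smallest fitting reads, so the count of 21 can be too low.

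The effectors sit among other interferon-stimulated genes, of which 53 were listed by name, with earlier results of these data known, and 45 were measured. Of these 45, 15 were higher by at least 2-fold (33.3%, beside 7.17% of all measured genes). The median log2 ratio was 0.70. Of 45 intervals 34 lay above 1, beside 12.7% of all measured genes, and 1 lay below, beside 21.5%. The highest were OASL (ratio 15.7, 5.85 to 59.1, on 4 and 69 reads) and OAS1 (8.92, 6.26 to 13.1), of the oligoadenylate synthetase family. CXCL10, a chemokine for T cells, was at 8.17 (1.96 to 72.6) on 2 and 18 reads, and IFITM1, which blocks virus entry at membranes, at 3.46 (3.14 to 3.82).

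The lowest of this list were SAMHD1, a dNTP hydrolase, at 0.677 (0.511 to 0.896), ZNFX1 at 0.914, SP110 at 0.963 and TRIM21, an antibody receptor in the cytosol, at 0.990. The last 3 had intervals that held 1, and equal sums would take SP110 and TRIM21 above 1. SAMHD1 has a second entry, listed at 0 in both libraries. ISG15, HERC6, NLRC5, PLSCR1 and HELZ2 were listed at 0 in both libraries.

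**Figure D4:**
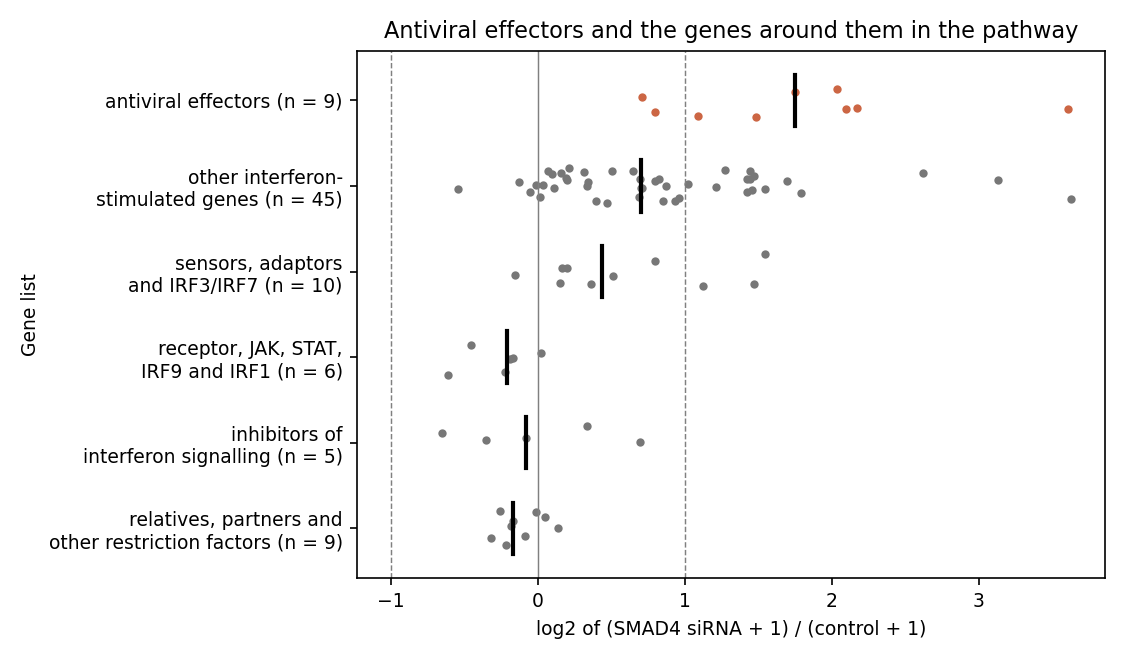
log2 ratio of values, each + 1, of SMAD4 siRNA over control siRNA, for each measured gene of 6 lists, with the black bar at the list median and dashed lines at 2-fold (vertical jitter has no meaning). The effectors (median 1.75) and other interferon-stimulated genes (median 0.70) lie mostly to the right of 0, and the receptor and STAT list (median -0.21) and the relatives and partners (median -0.17) mostly to the left on the deposited scale.

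Upstream of the effectors, genes that sense nucleic acids or relay that signal were higher by at least 2-fold at 3 of 10 measured members, beside 7.17% of all measured genes. In this list 7 intervals lay above 1, beside 12.7% of all genes, and 1 below, beside 21.5%. DDX58, the RNA sensor RIG-I, went from 36.5 to 108 (ratio 2.97, 2.35 to 3.79). MB21D1, the DNA sensor cGAS, had a ratio of 3.41 (1.08 to 14.1) on 4 and 15 reads, and IRF7, which turns on interferon genes, had 2.18 (1.91 to 2.50). DHX58, the RIG-I relative LGP2, was at 1.74 (1.61 to 1.88). At the other end were MAVS, the mitochondrial adaptor of RIG-I, at 0.895 (0.835 to 0.960, an interval that equal sums would take across 1), TMEM173, the adaptor STING, at 1.11, IRF3 at 1.12 and IFIH1, the sensor MDA5, at 1.15. TBK1 and TICAM1 were listed at 0 in both libraries. IRF7 and several sensors are themselves interferon-stimulated genes, and DDX58, DHX58 and IFIH1 stand in both lists.

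Genes that carry the interferon signal from the receptor to the effectors were near or below a ratio of 1. Of 6 measured, 0 had an interval above 1, beside 12.7% of all measured genes, and 4 had one below, beside 21.5%. Those 4 had 1496 to 4117 reads over both libraries, whereas the shares include genes with few reads, so the 2 are not matched. JAK1 was at 0.727 (0.655 to 0.806), TYK2 at 0.854 (0.801 to 0.910), STAT2 at 0.875 (0.807 to 0.948) and IRF9 at 0.889 (0.836 to 0.946). IRF1, a further activator of these genes, was at 1.01 (0.938 to 1.09), and IFNLR1 at 0.636 on 10 and 7 reads. With equal sums of both libraries, the ratios of JAK1, TYK2, STAT2 and IRF9 stayed below 1. On that scale 2 of 6 intervals lay below 1 (JAK1 and TYK2) and 1 lay above (IRF1). The shares of all genes at equal sums were not computed. IFNAR2 and IL10RB were listed at 0 in both libraries. Widely expressed genes such as TBK1 were also listed at 0, so a listed 0 says nothing of expression.

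Interferon transcripts themselves were nearly uncounted. Of 35 entries named as interferons, 2 were above 0: IFNE with 2 and 3 reads, and IFNL4, named after its value was seen, with 1 and 0 reads. IFNB1, IFNA1, IFNK and IFNG were listed at 0 in both libraries. Among inhibitors of interferon signalling, USP18, which removes ISG15 and blocks the receptor, was at 1.62 (1.51 to 1.73) and SOCS1 at 1.27 (0.879 to 1.84). PTPN2, a phosphatase of JAK1, was at 0.780 (0.663 to 0.916), PIAS1 at 0.619 (0.299 to 1.25) and IRF2 at 0.945 (0.821 to 1.09), and SOCS3 was listed at 0 in both.

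A list of relatives, partners and other restriction factors lay close to a ratio of 1. Of 9 measured, 0 were higher by at least 2-fold, beside 7.17% of all measured genes. An interval above 1 was found for 0, beside 12.7%, and one below for 5, beside 21.5%. All 9 had at least 100 reads over both libraries, and these shares are not limited to such genes. The median log2 ratio was -0.17. With equal sums 2 intervals lay above 1 (DNM2 and APOBEC3F) and 1 below (SERINC3), and the shares of all genes on that scale were not computed. DNM1L and DNM2, dynamins of the same superfamily as MX1, were at 0.989 (0.720 to 1.36) and 1.03 (0.994 to 1.07). ISG20L2 and REXO4, exonucleases related to ISG20, were at 0.889 (0.814 to 0.970) and 0.880 (0.799 to 0.969). SERINC3 and SERINC5, membrane proteins that reduce retroviral infectivity, were at 0.836 (0.790 to 0.885) and 0.799 (0.613 to 1.04). APOBEC3F, a cytidine deaminase that restricts retroviruses, was at 1.10 (0.940 to 1.29), GBF1 at 0.861 and DYNLL1 at 0.941.

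The MX genes lie beside each other in Sscrofa11.1, as do the 4 IFIT genes, and RSAD2 lies beside CMPK2, a mitochondrial kinase that supplies CTP. CMPK2, which belongs to the list of other interferon-stimulated genes, was at 107 and 288 with a ratio of 2.70 (2.29 to 3.20). The 2 nearest protein-coding genes on each side of the 9 effectors gave 20 genes that are no effectors, of which 14 were measured, 3 were listed at 0 in both libraries and 3 were not analysed here. Of the 14, 1 had an interval above 1, which was CMPK2 (12.7% of all genes did), and 6 had one below (21.5% of all genes). By the rule of size 2 were higher by at least 2-fold, beside 7.17% of all genes: CMPK2, and TMEM221 near BST2, which had 0 and 1 reads. SOX11, beyond CMPK2, was at 2.18 (0.715 to 7.90) on 5 and 12 reads. On the other side of RSAD2, RNF144A was at 0.740 (0.538 to 1.02) and ID2 at 0.585 (0.544 to 0.629).

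Beside the IFIT genes, LIPA was at 0.872 (0.825 to 0.921), CH25H, an enzyme that makes an antiviral oxysterol, at 1.07 (0.915 to 1.26) and PANK1 at 0.605 (0.395 to 0.918). BACE2, beside the MX genes, was at 0.816 (0.788 to 0.845). AEN, an exonuclease gene beside ISG20, was at 0.799 (0.749 to 0.853), and DET1 at 0.755 (0.667 to 0.854).

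**Figure D5:**
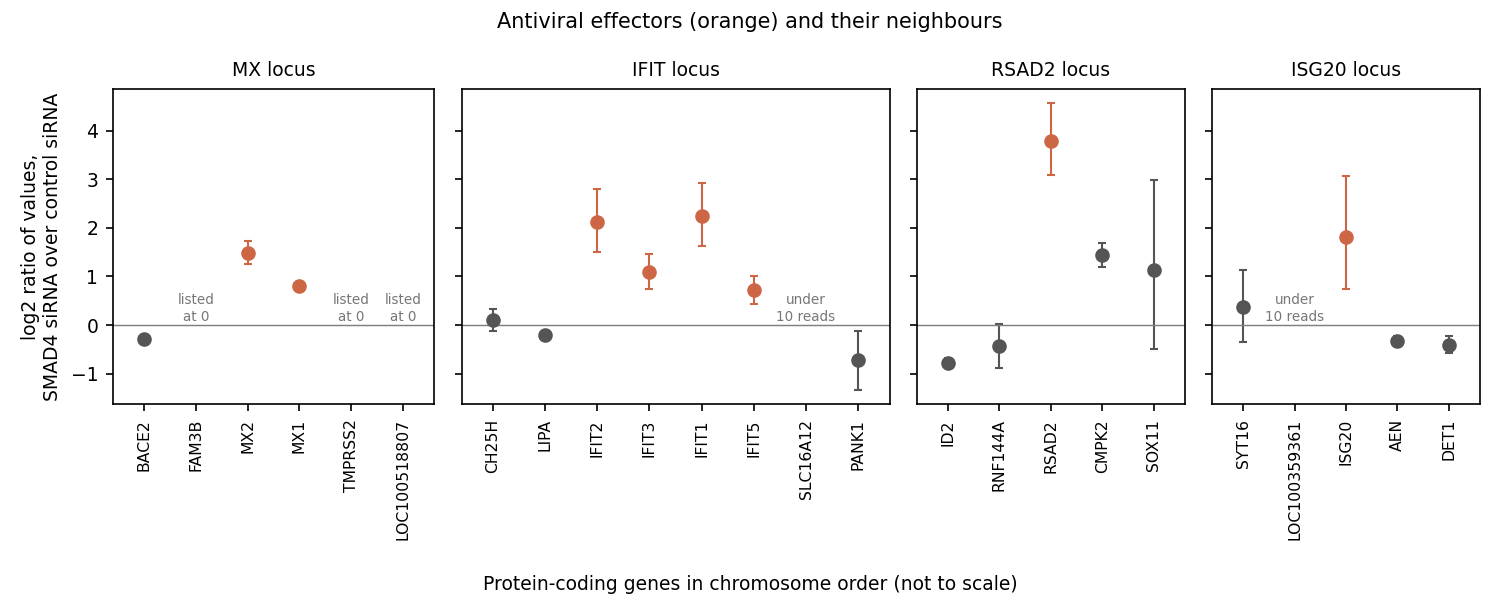
log2 ratio of values, SMAD4 siRNA over control, with 95% counting intervals, for effectors (orange) and the nearest protein-coding genes (grey) in chromosome order, not to scale, at 4 loci. Effectors and CMPK2 have intervals wholly above 0, the other grey points with narrow intervals lie near or below 0, and genes listed at 0 or with under 10 reads are written in words.

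Markers of immune cells, which express many of these effectors, were also counted. Of 9 measured leukocyte markers, 0 had an interval above 1, beside 12.7% of all genes, and 1 had one below, beside 21.5%. Only 2 of the 9 had at least 100 reads over both libraries, so most of these intervals are wide. The summed value of the 9 was 798 with control siRNA and 759 with SMAD4 siRNA. CD14 made up most of that sum, at 579 and 566 (ratio 0.978, 0.888 to 1.08). LST1 was at 121 and 110 (102 and 102 reads) and TYROBP at 57.4 and 50.5 (33 and 32 reads), with intervals that held 1. PTPRC, the pan-leukocyte CD45, had 1 and 2 reads. CD3E and CD163 were listed at 0 in both, which says nothing of expression. Of the plasmacytoid dendritic cell markers, IRF8 had 3 and 0 reads, IL3RA was listed at 0 in both, and TCF4, which other cells express too, was at 90.7 and 97.7. Of 5 measured endothelial markers 0 had an interval above 1, beside 12.7% of all genes. Of the same 5, 2 had one below, beside 21.5%. With equal sums it was 1, a scale on which no share of all genes was computed. Of the theca list, CYP17A1, LHCGR and INSL3 were listed at 0 in both libraries. The 3 measured all had an interval below 1, beside 21.5% of all genes on the deposited scale, and also with equal sums. They were TAGLN (118941 and 95286), COL3A1 (37062 and 28474) and DCN (2151 and 1598), so that count rests on these genes alone. Each had a higher level in both libraries than the granulosa markers GATA4, WT1 and FOXL2.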

How the data were processed

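The authors deposited upper-quartile-scaled RPKM values (so the table names say) for 1 library per group, prepared from pooled total RNA for Ion Torrent Proton sequencing, per the labels' protocols. The sources used here name no aligner, counter, build or annotation. Members and gene lists were chosen with earlier results of these data known.

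Each gene's smallest whole reads and length (up to 40000 bases) were solved from both values with divisors of 890 (control) and 980 (SMAD4 siRNA). This worked for all 18428 genes above 0, with tolerances of 2e-09 (relative) and 1e-06 (absolute). The step was tested on simulated data. Ratios have Clopper-Pearson intervals, levels Poisson intervals, and ratios of 2 ratios conditional odds ratio intervals (SciPy 1.17.1), all at 95%. PCR reads are not independent molecules, so intervals cover counting error only. The pseudocount was 1.

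Named genes were the 10 effectors, SMAD4, up to 4 measured genes at each end of a pathway list, genes listed at 0 in both libraries, and CMPK2. Neighbours in RefSeq order (Sscrofa11.1, used for names and order alone), marker genes and those in the closing section were chosen after the values were seen. The planned promoter motif search was not run, since no promoter sequence was used here. One gene of the pathway lists is not reported here.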

Additional observations from a re-analysis of the deposited data

How the results depend on the processing

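No paired analysis was possible because each group has 1 library. For the same reason no replicate could be left out. Over 8 alternatives, 0 of 70 values of single effectors changed sign and 5 left their counting interval: RSAD2 with a pseudocount of 5 (3.08), and RSAD2 (2.49), IFIT1 (1.60), IFIT2 (1.44) and MX1 (0.91) with both libraries rescaled to the same sum, which adds 0.12 to every log2 ratio of plain values and makes the pseudocount weigh more. The count of effectors higher by at least 2-fold was 6 of 8 with symbols of the deposited tables alone (7.17% of all genes). It was 9 at 1.5-fold (13.5%) and 4 at 4-fold (2.28%). The effectors' median log2 ratio was 1.81 with a pseudocount of 0.1, 1.51 with 5, 1.44 after rescaling to the same sum and 1.62 with deposited symbols alone, which drop RSAD2. Of 45 other interferon-stimulated genes, 15 were called at 2-fold (7.17% of all genes), 26 at 1.5-fold (13.5%) and 3 at 4-fold (2.28%). By a counting interval above 1 it was 34 (12.7%). The summed ratio of 3.09 was 1.91 without BST2 and 2.64 without BST2 and MX1, settings chosen after seeing the data. ISG20, RSAD2, IFIT1 and IFIT2 rest on 25 or fewer control reads, which limits their precision. The motif alternative was not run.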

Other observations

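Beside the effectors, interferon also induces enzymes that attach the ubiquitin-like ISG15 to proteins. UBA7, the activating enzyme of ISG15, was at 164 and 441 (ratio 2.69, 2.42 to 2.99). HERC5, its ligase, was at 126 and 348 (ratio 2.76, 2.32 to 3.30), and UBE2L6, its conjugating enzyme, at 1829 and 3563 (ratio 1.95, 1.79 to 2.13). The entry proteins IFITM2 and IFITM3 had ratios of 2.42 (2.20 to 2.66) and 2.32 (2.10 to 2.56), and these paralogs are alike in sequence, so their reads may be split. These 5 genes were named after their values were seen, so they describe no group. HERC6, a relative of HERC5, was listed at 0 in both libraries, and TRIM25, an E3 ligase that acts on RIG-I, was at 1.27 (1.04 to 1.54) with a second entry of that name at 0.944.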
